A study of Saccharomyces cerevisiae with 9 samples.

Results

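The cyclin genes of budding yeast described here were the G1 cyclin genes CLN1, CLN2 and CLN3 and the B-type cyclin genes CLB1 to CLB6, 9 of the 6002 protein-coding genes in the annotation. Every nucleosome call was taken whose WT dyad, the midpoint of the nucleosomal DNA, lay from 60 bp upstream of the start codon to the stop codon. This gave 68 of the 51917 paired calls used, and no measured value entered the choice.

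MNase-seq, in which micrococcal nuclease digests the DNA between nucleosomes and the protected fragments are sequenced, was performed on formaldehyde-fixed ioc3Δ, ioc3ΔcHLB and WT cells, with 3 samples per strain. All strains had the BY4742 background, were grown in rich medium and are labelled with a FLAG tag, ioc3Δ among them. ioc3Δ lacks IOC3, the gene of the subunit that joins the ATPase Isw1 in the chromatin remodeler ISW1a, and ioc3ΔcHLB carries a truncation of the domain of Ioc3 that binds linker DNA. WT carries intact ISW1a. The labels name neither an arrest nor a synchronization of the cells in the cell cycle.

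The deposited calls were made on the 3 samples of a strain merged, so each call has 1 value per strain and no spread between samples can be given. All p-values compare merged libraries and not cultures, intervals of single calls cover counting error only, and intervals of medians treat calls as independent. As a check of the labels, the calls on IOC3 held 0.574% of the WT occupancy in ioc3Δ. They held 0.680% of it in the table labelled ioc3ΔcHLB, although that strain should keep most of the gene. At the 65 cyclin calls that both mutant tables pair with the same WT call, the occupancies of the mutant tables differed from each other by 0.152 of the counting noise (robust SD), against 3.72 for ioc3Δ compared with WT. The table labelled ioc3ΔcHLB was therefore not taken as a second mutant, and its values stand below only as a second calling of nearly the same occupancy.

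Cyclins bind and activate the cyclin-dependent kinase Cdc28 and give it its substrates, and their genes are transcribed in waves. Cln3 acts early in G1 and starts the wave of CLN1, CLN2, CLB5 and CLB6 through the factors SBF and MBF. Clb5 and Clb6 start DNA replication, Clb3 and Clb4 act in spindle formation, and Clb1 and Clb2 drive mitosis, their genes being transcribed with Mcm1, a forkhead factor and Ndd1.

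The sequences below show 5 of the 14 moved dyads, among them the largest move in each direction. They are reference sequence of the sacCer3 assembly, written in the direction of the gene, and reach 73 bp to each side of the WT dyad, or from the start codon on in CLB1. Capitals run from the WT dyad to the ioc3Δ dyad. Calls are counted from the start codon. CLN1 call 5 (chrXIII:663644-663790, plus strand) held the largest upstream move of the family, and CLN1 call 3 (chrXIII:663049-663195, plus strand) and CLN2 call 9 (chrXVI:65068-65214, minus strand) moved almost equally far in both mutant tables. CLB1 call 1 (chrVII:703636-703781, plus strand) held the largest downstream move, and CLB4 call 2 (chrXII:562070-562216, plus strand) the largest downstream move in CLB3 to CLB6. CLN1 call 3, CLN2 call 9 and CLB4 call 2 were chosen after their values were seen. In the table labelled ioc3ΔcHLB CLN1 call 5 stood at -1 bp and CLB1 call 1 at 19 bp, and neither passed. By the mean dyad in ioc3Δ they stood at -40 bp and 52 bp. The -71 bp of CLN1 call 5 lies near 72 bp, the largest distance between paired dyads.
CLN1 call 5: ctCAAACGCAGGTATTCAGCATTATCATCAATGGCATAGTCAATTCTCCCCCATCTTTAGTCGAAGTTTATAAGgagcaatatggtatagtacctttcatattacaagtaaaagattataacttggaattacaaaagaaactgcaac
CLN1 call 3: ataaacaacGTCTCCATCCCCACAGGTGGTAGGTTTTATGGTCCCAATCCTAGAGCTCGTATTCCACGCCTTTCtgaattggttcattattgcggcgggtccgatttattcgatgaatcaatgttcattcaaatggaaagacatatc
CLN2 call 9: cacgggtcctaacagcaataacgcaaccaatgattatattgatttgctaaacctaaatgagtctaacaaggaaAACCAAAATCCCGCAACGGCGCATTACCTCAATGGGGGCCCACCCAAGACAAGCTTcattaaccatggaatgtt
CLB1 call 1: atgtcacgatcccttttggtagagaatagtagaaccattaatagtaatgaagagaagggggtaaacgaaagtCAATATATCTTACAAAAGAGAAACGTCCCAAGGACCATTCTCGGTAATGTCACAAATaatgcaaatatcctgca
CLB4 call 2: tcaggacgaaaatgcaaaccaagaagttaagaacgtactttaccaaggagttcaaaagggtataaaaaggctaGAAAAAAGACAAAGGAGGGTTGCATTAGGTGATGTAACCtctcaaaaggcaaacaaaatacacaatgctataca
All 5 stretches lie in coding exons. In ioc3Δ the dyad lay at the 5′ end of the capitals in both CLN1 windows and at their 3′ end in the other 3.

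The factors that switch these genes on bind short sequences upstream of them. On either strand of the 700 bp before the start codon, the MBF element ACGCGT was found in CLB6 and CLN1, 2 of 9 cyclin genes, and in 6.98% of the 5999 genes searched. The SBF element, searched as CACGAAA and CGCGAAA, was found in CLN2 and CLB4, 2 of 9 genes, against 15.7% of all genes, and the forkhead element GTAAACA in CLB1, CLB4 and CLB6, 3 of 9 against 13.6%. No site of one element overlapped a site of another in these genes. The windows with more than 1 SBF or MBF site are those of CLN2 (chrXVI:67131-67235, minus strand, 621 to 517 bp before the start codon) and CLB6 (chrVII:706858-706919, minus strand, 418 to 357 bp before it), with the sites in capitals.
CLN2 promoter: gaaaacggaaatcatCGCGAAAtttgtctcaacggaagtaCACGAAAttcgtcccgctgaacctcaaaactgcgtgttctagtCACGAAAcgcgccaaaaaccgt
CLB6 promoter: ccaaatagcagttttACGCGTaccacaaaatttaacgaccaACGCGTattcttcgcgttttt
These windows hold no paired call. The deposited pairs lie almost entirely in genes, since 95.1% of all paired calls had their dyad in a coding region or within 60 bp before one, and in every cyclin gene but CLB1 the next paired call upstream of +1 lay in the neighbouring protein-coding gene or within 60 bp of it. Nucleosomes at these elements were not analysed here.

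The cyclin genes have 1 exon each and 6 to 9 calls. CLB1 (YGR108W, chromosome VII, 703636 to 705051, plus strand) and CLB6 (YGR109C, chromosome VII, 705359 to 706501, minus strand) face each other with 307 bp between their stop codons, and CLB2 (YPR119W, chromosome XVI, 771653 to 773128, plus strand) and CLB5 (YPR120C, chromosome XVI, 773875 to 775182, minus strand) do so with 746 bp between them. The others were CLN1 (YMR199W, chromosome XIII, 662644 to 664284, plus strand), CLN2 (YPL256C, chromosome XVI, 64977 to 66614, minus strand), CLN3 (YAL040C, chromosome I, 65778 to 67520, minus strand), CLB3 (YDL155W, chromosome IV, 176773 to 178056, plus strand) and CLB4 (YLR210W, chromosome XII, 562008 to 563390, plus strand). The +1 call is the first with a WT dyad between 60 bp before and 120 bp past the start codon, and each following call 110 to 230 bp further on has the next number. All 9 genes had a +1 call. The paper refers its nucleosome positions to the transcription start site, so its +1 need not be the call numbered +1 here. Occupancy is a signal without a fixed unit, and 1 sequenced fragment was worth 0.199 in ioc3Δ and 0.138 in WT. The cyclin calls rested on a median of 199 fragments in ioc3Δ and 317.5 in WT, with at least 75 in ioc3Δ and 104 in WT, and all 68 passed the occupancy minimum of the shift test.

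**Figure D1:**
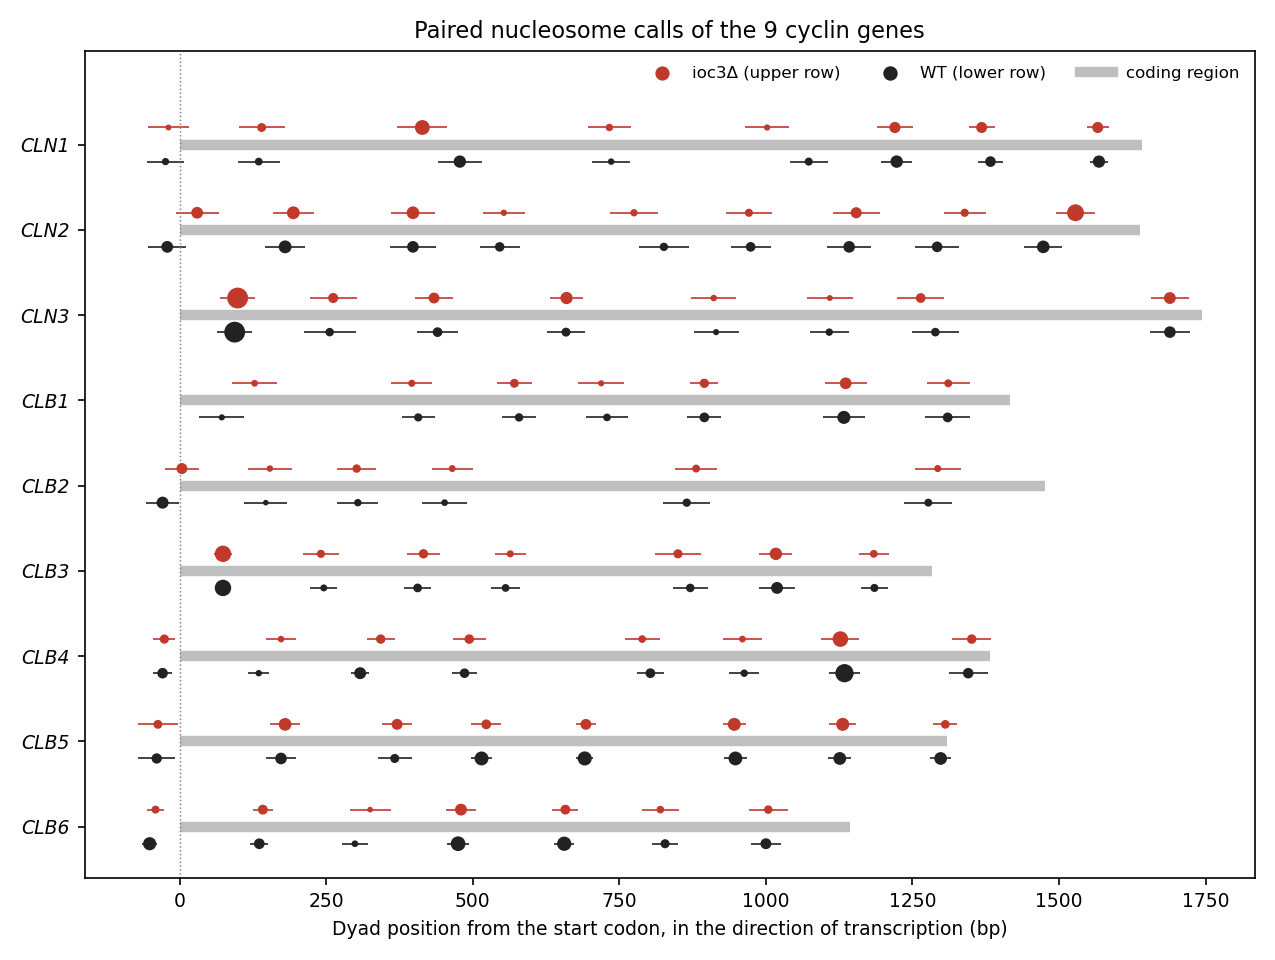
Positions of the 68 paired calls of the cyclin genes, in bp from the start codon (x axis), with ioc3Δ in the upper and WT in the lower row of each gene. Dot area follows the occupancy up to 200, horizontal lines show 1 SD of the dyads to each side, and grey bars are coding regions. CLN1, CLN2, CLN3, CLB1 and CLB2 have long horizontal lines in both strains, and CLB6 has the most evenly spaced row.

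The clearest division among the cyclin genes was how sharply their nucleosomes were placed, and it was there in WT. The SD of the dyads of a call, in bp, is small where the fragments of a nucleosome share 1 position. The median SD of a gene in WT was 37.3 bp in CLB2, 35.99 bp in CLB1, 34.4 bp in CLN3, 34.3 bp in CLN2 and 32.1 bp in CLN1. Of the 4926 genes with at least 4 calls, CLB2 stood at percentile 99.7 of this value, CLB1 at 98.6, CLN3 at 95.6, CLN2 at 95.4 and CLN1 at 89.0, so all 5 had broad calls. CLB3 (23.2 bp), CLB4 (22.02 bp), CLB5 (19.7 bp) and CLB6 (19.2 bp) lay at percentile 38.5, 30.02, 15.5 and 13.2, in this order. The mitotic cyclin genes stood on both sides of this gap, CLB1 and CLB2 on one and CLB3 and CLB4 on the other. The grouping was made after the values were seen. The GC content within 73 bp of the WT dyads had a median of 39.8% in the cyclin calls and 39.5% in all genes, and by gene ran from 34.7% in CLB6 to 42.9% in CLN3 and CLB3.

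**Figure D2:**
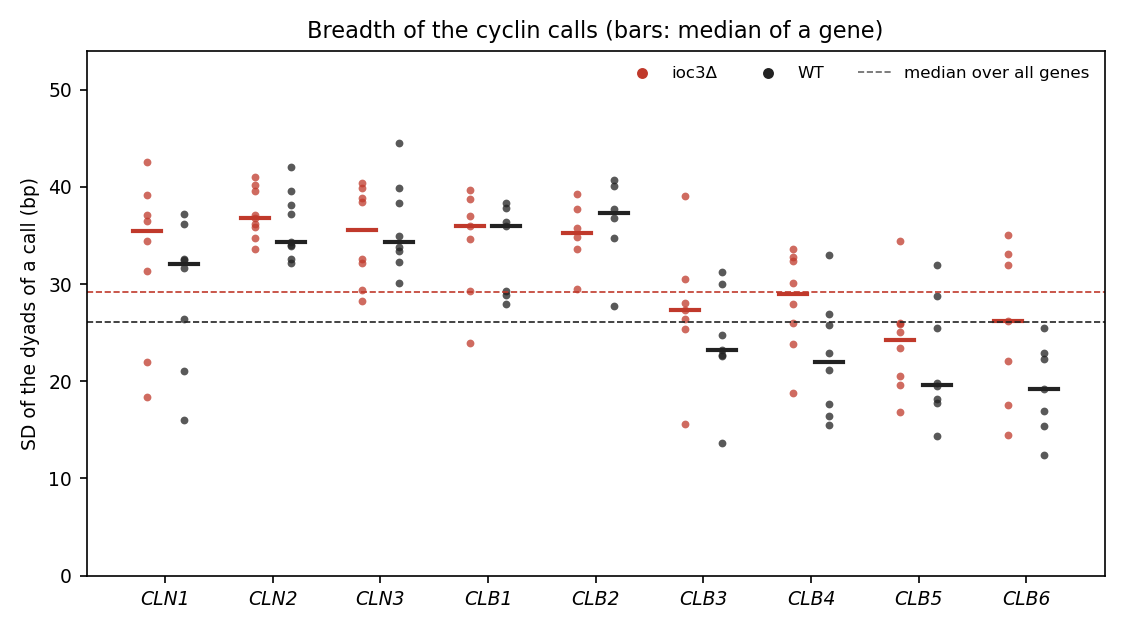
SD of the dyads (y axis, bp) of each cyclin call by gene, with ioc3Δ to the left of WT, bars at the median of a gene and dashed lines at the median over the calls of all genes (29.2 bp in ioc3Δ and 26.1 bp in WT). The WT medians of CLN1 to CLN3, CLB1 and CLB2 lie above 32 bp and those of CLB3 to CLB6 below 24 bp.

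Most cyclin calls were broader in ioc3Δ, by amounts that differed between genes. Over all 68 calls the median SD was 32.7 bp in ioc3Δ and 30.0 bp in WT, and the median difference was 2.30 bp (95% interval 0.93 to 2.99), beside 2.39 bp over all genes. The SD was higher in ioc3Δ in 51 of 68 calls (77.3% of the calls of all genes). It was at least 5 bp higher in 19 cyclin calls (27.9%), where 22.8% of all calls were, and at least 5 bp lower in 1, CLB1 call 5, where 2.4% of all calls were. CLB4 held 6 and CLB6 5 of these 19 calls, CLB3 and CLN1 2 each, CLB5, CLN2, CLN3 and CLB1 1 each and CLB2 none. By the division made above, the median difference was 0.62 bp (95% interval -0.87 to 2.40) over the calls of CLN1 to CLN3, CLB1 and CLB2. Over those of CLB3 to CLB6 it was 4.11 bp (2.34 to 7.03). At least 5 bp broader were 5 of 38 calls in the first group and 14 of 30 in the second. CLN1 stood apart from its group with a median difference of 3.51 bp and all 8 calls broader, beside 2.74 bp in CLB3 and 2.46 bp in CLB5.

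The S-phase cyclin gene CLB6 and the mitotic cyclin gene CLB4 had the largest gains in breadth. All 7 calls of CLB6 and all 8 of CLB4 were broader in ioc3Δ, with median differences of 7.03 bp and 6.88 bp, at percentile 98.98 and 98.7 of genes with at least 4 calls. CLB6 call 3 had an SD of 35.04 bp in ioc3Δ, against 22.3 bp in WT, the largest difference of the family at 12.8 bp. In CLB4 the +3 call had an SD of 23.8 bp in ioc3Δ and 15.5 bp in WT. At the other end CLB2 had a median difference of -1.28 bp and CLN3 one of -0.94 bp, at percentile 1.46 and 2.44. The WT SD enters both the breadth of a gene and the difference, so the one is not independent of the other. The SDs were larger in the table labelled ioc3ΔcHLB, by a median of 1.02 bp at the shared calls.

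Dyads moved in both directions. The shift of a call is the distance along the gene by which its ioc3Δ dyad lies past its WT dyad, negative where it lies before it, and it was tested for each call by an unequal-variance test from the dyads, their SDs and the occupancies as numbers of observations, at an unadjusted p under 0.01. Of the 68 cyclin calls 9 passed downstream (13.2%), where 12.5% of all calls did, and 5 passed upstream (7.35%), where 9.06% did. The 14 calls lay in 7 of the 9 genes, and no call of CLB3 or CLB5 passed. All 14 had a Benjamini-Hochberg adjusted p under 0.05 over all paired calls, and 7 of them passed in the same direction in the table labelled ioc3ΔcHLB. With 3 observations per strain in place of the occupancy 0 calls passed, and with fragments 24 passed downstream and 11 upstream. Over all 68 the median was 2.5 bp downstream (95% interval 0 to 5), against 1 bp over all genes, and 47 of the 68 calls shifted by at most 10 bp. Of the 14 calls that passed, 10 had a WT SD above the median of all paired calls, as did 42 of the 68.

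**Figure D3:**
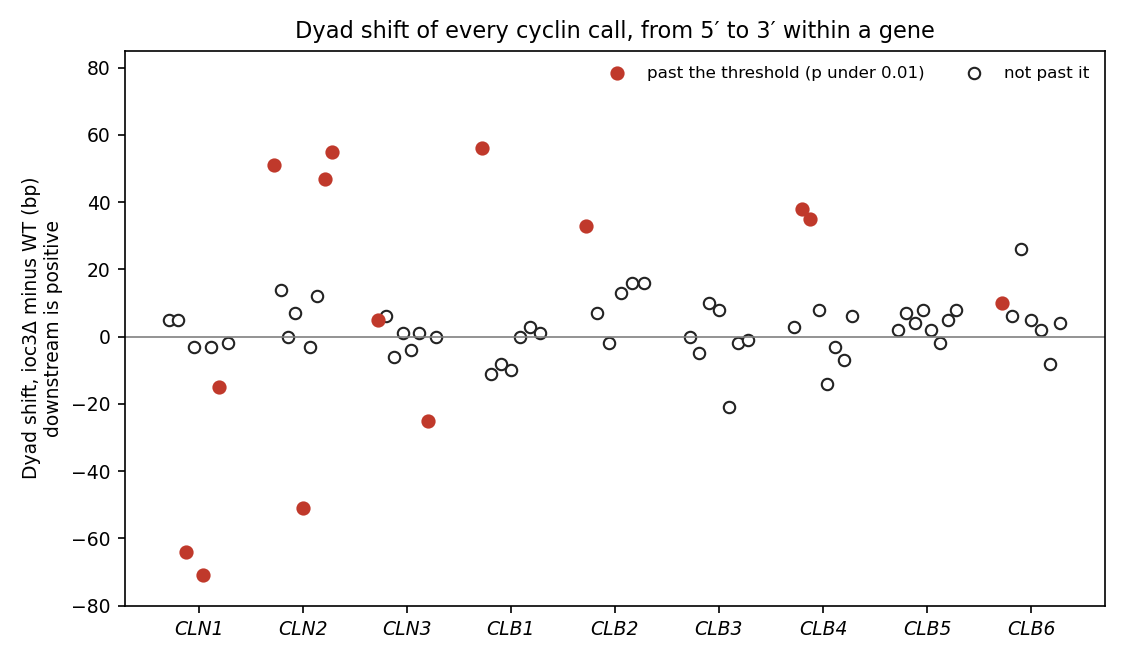
Shift of every cyclin call (y axis, bp, ioc3Δ minus WT, downstream positive) by gene, from the first to the last call from left to right. Filled points passed the threshold and open points did not. The largest shifts are 56 bp downstream, in CLB1, and 71 bp upstream, in CLN1, and no point of CLB3 or CLB5 is filled.

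At the start of the genes all calls that passed in ioc3Δ were shifted downstream. In the table labelled ioc3ΔcHLB CLB2 +3 passed upstream, at -39 bp, with -2 bp in ioc3Δ. At +1, 5 of 9 cyclin calls passed downstream and none upstream, where 11.1% of the +1 calls of genes over 560 bp passed downstream. The +1 calls that passed were those of CLN2, CLN3, CLB1, CLB2 and CLB6. With the mean dyad of a call 3 of the 9 passed, without CLN3 and CLB6, and in the table labelled ioc3ΔcHLB 2 did, those of CLN2 and CLB2. With 3 observations per strain 0 of the 9 passed. These counts were added after the data were seen. At +2, 1 of 8 passed downstream (24.6% in all genes) and at +3, 1 of 7 (24%), both in CLB4. At +4 none of 7 passed (18.5% downstream and 4.08% upstream in all genes). From +1 to +4 together 7 of 31 passed downstream (19.5% in all genes) and none upstream (2.9%), with a median shift of 7 bp. The median shift was 5 bp at +1 in the cyclin genes against 2 bp in all genes, 6.5 bp against 4 bp at +2, 4 bp in both at +3 and 8 bp against 3 bp at +4. All 7 calls at +4 had a downstream value, of 1 to 13 bp, without passing, where 64.1% of the +4 calls of all genes had one. Among the 37 calls without a number from +1 to +4, 2 passed downstream, both in CLN2 (8.64% of such calls in all genes), and all 5 upstream calls of the family were there (13%). The +1 calls had a median WT SD of 30.1 bp against 17.8 bp in all genes, but those of CLB6 (12.4 bp), CLB3 (13.6 bp) and CLB4 (16.4 bp) were sharper than that of all genes.

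CLN3, whose product is the first of the G1 cyclins to act, carried the highest occupancy of the family. Its +1 call, 94 bp into the WT coding region, had an occupancy of 1626 in ioc3Δ and 975 in WT, at percentile 98.3 and 98.1 of all calls, while no other cyclin call was above 131.7 in ioc3Δ or 153.9 in WT. The ratio, divided by the median ratio of all paired calls (0.892), was 1.87 (95% counting interval 1.81 to 1.93). For this call it was 1.67 without scaling and 1.41 when scaled by the summed occupancies. The ratio of the summed occupancies of all paired calls was 1.18, above their median ratio. Whether calls this high in other genes gained as much in ioc3Δ was not tested. The next paired call upstream, 1195 bp before the start codon, was of like height, with 1433 in ioc3Δ and 1026 in WT and a scaled ratio of 1.57. Of the 8 calls 7 had a scaled ratio above 1, with a median of 1.43, at percentile 93.0 of genes with at least 4 calls. This median stayed above 1 without scaling (1.27) and when scaled by the summed occupancies (1.08), which put 3 of the 8 calls under 1. CLN3 call 4 had 69.1 in ioc3Δ against 37.0 in WT, the highest scaled ratio of the family at 2.10 (1.78 to 2.47), and +2 had 47.2 in ioc3Δ against 33.4 in WT, at 1.59. In CLN3 7 of 8 dyads shifted by at most 6 bp. The +1 shift of 5 bp passed, on 8161 fragments in ioc3Δ and 7063 in WT, while the mean dyad of that call shifted by 0 bp. The +2 dyad shifted by 6 bp (not past the threshold), and CLN3 call 7 by 25 bp upstream, which passed.

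CLN1 and CLN2, paralogs of the later G1 wave, had +1 dyads at almost the same place in WT, 24 and 21 bp before the start codon, and not in ioc3Δ. In CLN1 the +1 dyad lay 19 bp before the start codon in ioc3Δ, a shift of 5 bp. The +2 dyad also shifted by 5 bp, and neither was past the threshold. In the table labelled ioc3ΔcHLB the +2 dyad stood at 44 bp, which passed. The occupancies were 16.3 in ioc3Δ and 24.3 in WT at +1, and 36.9 in ioc3Δ and 28.2 in WT at +2. In CLN2 the +1 dyad lay 30 bp past the start codon in ioc3Δ, a shift of 51 bp that passed, with occupancies of 64.2 in ioc3Δ and 63.8 in WT. The +2 dyad of CLN2 shifted by 14 bp, which did not pass, on 75.5 in ioc3Δ and 76.2 in WT. The 3 CLN1 calls that passed moved upstream, and they lay in the body of the gene. CLN1 call 5 moved by 71 bp upstream, but stood at -1 bp, not passed, in the table labelled ioc3ΔcHLB, with occupancies of 18.1 in ioc3Δ and 30.2 in WT. CLN1 call 3 moved by 64 bp upstream, CLN1 call 7 by 15 bp upstream. CLN1 call 3 also had a higher occupancy, 101.6 in ioc3Δ and 70.1 in WT, and its SD of 42.6 bp in ioc3Δ, against 37.2 bp in WT, was the highest of the family in that strain.

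CLN2 had the most moved calls of the 9 genes, 4 of 9, in both directions. CLN2 call 9, near the 3′ end, moved by 55 bp downstream and had an occupancy of 132 in ioc3Δ and 74.1 in WT, a scaled ratio of 1.99 (1.78 to 2.24). The call before it moved by 47 bp downstream and call 5 by 51 bp upstream, both past the threshold and both in the other direction in the table labelled ioc3ΔcHLB. CLN2 call 4 shifted by 7 bp, which did not pass, while its occupancy was 18.7 in ioc3Δ and 42.0 in WT, a scaled ratio of 0.50 (0.393 to 0.633). The calls of this gene thus ranged from the lower to the upper end of the occupancy ratios of the family.

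CLB5 and CLB6, the S-phase cyclin genes, had the lowest median SDs in WT and only 1 call past the threshold. Not every call of CLB5 was sharp, with WT SDs of 32.0 bp at +1 and 28.8 bp at call 3. Of their 15 dyads 13 had a downstream value in ioc3Δ, where 51.8% of the calls of all genes had one. In genes over 560 bp this share was 64.1% to 78.7% by position from +1 to +4. Only CLB6 +1 passed, by 10 bp. It did not pass with the mean dyad (7 bp) or in the table labelled ioc3ΔcHLB (0 bp). The 8 shifts of CLB5 ran from -2 to 8 bp, with 2 bp at +1 and 7 bp at +2. In CLB6 the +2 dyad shifted by 6 bp and that of call 3 by 26 bp, neither past the threshold, and call 3 held 75 fragments in ioc3Δ.

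CLB6 had lower values of occupancy in ioc3Δ than in WT along the whole gene. All 7 calls had a scaled ratio under 1, with a median of 0.738, where the calls of all genes had a median of 1.01. CLB6 +1, whose dyad lay 41 bp before the start codon in ioc3Δ and 51 bp before it in WT, had 29.3 in ioc3Δ against 79.8 in WT, the lowest scaled ratio of the family at 0.412 (0.341 to 0.494). CLB6 also had the lowest median GC content of the 9 genes (34.7%), and CLN3 and CLB3, with the highest (42.9%), had the highest median ratios (1.43 and 1.22). The part of GC content in the ratios was not tested. CLB6 call 5 had 44.6 in ioc3Δ and 93.9 in WT. The +2 call differed least, with 45.4 in ioc3Δ and 52.7 in WT. Its scaled ratio was 0.966 (0.816 to 1.14) and that of CLB6 call 3 was 0.815 (0.609 to 1.08), both with intervals that include 1. In CLB5 the calls varied more, with scaled ratios of 0.554 at call 4, 0.665 at call 5 and 0.530 at call 8 beside 1.63 at call 3. The occupancy of CLB5 +1 was 36.5 in ioc3Δ and 49.0 in WT, and that of +2 was 74.9 in ioc3Δ and 62.5 in WT.

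Among the mitotic cyclin genes, CLB3 and CLB4, which act in spindle formation, had unlike shifts at the start of the gene. No dyad of CLB3 passed, and its +1 dyad lay 74 bp past the start codon in both strains, with occupancies of 124 in ioc3Δ and 125 in WT. The SD of that call, 15.6 bp in ioc3Δ and 13.6 bp in WT, was the lowest of the gene. The +2 call of CLB3 shifted by -5 bp (not passed) and had 30.7 in ioc3Δ against 22.4 in WT, a scaled ratio of 1.54. In CLB4 the +1 dyad shifted by 3 bp, not past the threshold, on 39.2 in ioc3Δ and 51.6 in WT, and the next calls both moved. CLB4 +2 moved by 38 bp downstream and +3 by 35 bp, both past the threshold, and +4 shifted by 8 bp without passing. The distance between +1 and +2 of CLB4 was thus 199 bp in ioc3Δ and 164 bp in WT. The occupancy of +2 was 19.9 in ioc3Δ and 19.2 in WT, and that of +3 was 40.6 in ioc3Δ and 66.0 in WT.

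CLB1 and CLB2, whose products drive mitosis, had 1 call each past the threshold in ioc3Δ, at +1 in both. In the table labelled ioc3ΔcHLB CLB2 call 3 (-39 bp) and CLB2 call 6 (59 bp) also passed. The +1 dyad of CLB1 lay 128 bp past the start codon in ioc3Δ and 72 bp past it in WT, a shift of 56 bp (19 bp, not passed, in the table labelled ioc3ΔcHLB), on occupancies of 21.1 in ioc3Δ and 17.5 in WT. That of CLB2 lay 4 bp past the start codon in ioc3Δ and 29 bp before it in WT, a shift of 33 bp, on 55.6 in ioc3Δ and 67.0 in WT. These 2 genes had the lowest median occupancies of the family, 29.1 and 26.2 in ioc3Δ and 32.9 and 27.3 in WT. CLB2 +2 had 19.3 in ioc3Δ and 14.4 in WT and a shift of 7 bp, not past the threshold, and its scaled ratio of 1.51 has a counting interval of 1.13 to 2.01. CLB1 has no call numbered +2, since its next call lay 335 bp further on in WT.

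**Figure D4:**
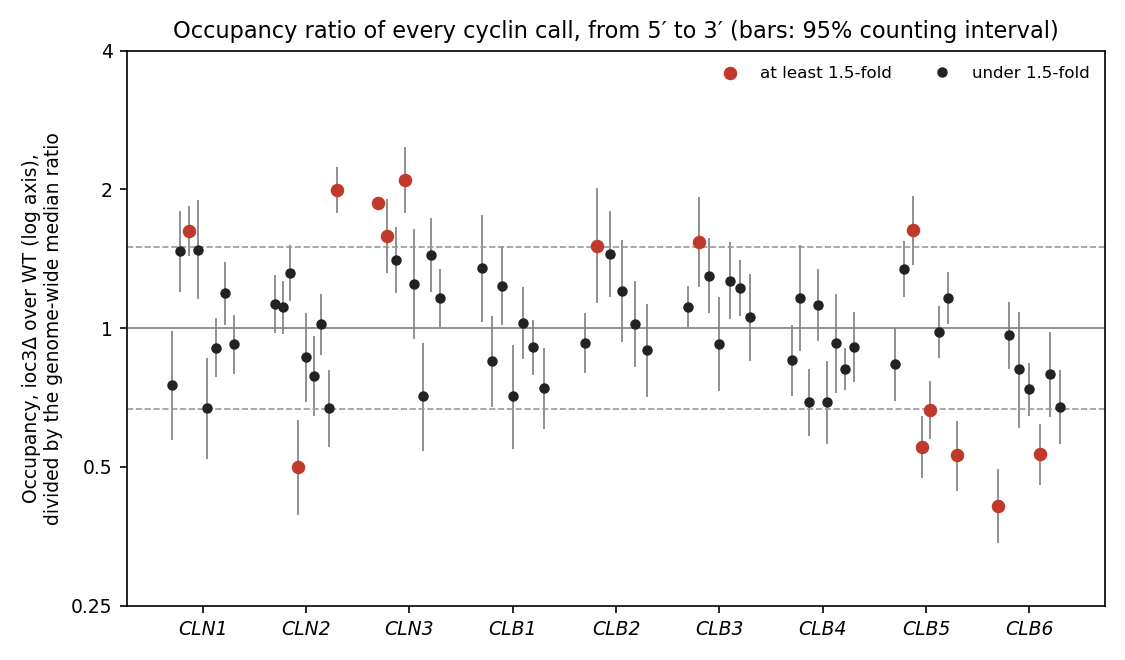
Scaled occupancy ratio, ioc3Δ over WT (y axis, log scale), of each cyclin call by gene, from the first to the last call. Bars are 95% counting intervals, dashed lines mark 1.5-fold, and filled red points lie beyond them. All 7 points of CLB6 lie under 1 and 7 of the 8 points of CLN3 above it.

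After division by the median ratio of all paired calls, 34 of the 68 calls had a ratio under 1, where 40 did without scaling and 53 when scaled by the summed occupancies. The median scaled ratio was 1.00 (95% interval 0.91 to 1.16), beside 1.01 over all genes, and 8 calls were at least 1.5-fold higher in ioc3Δ (11.8% of all calls were) and 6 at least 1.5-fold lower (8.96%). The 8 higher calls lay in CLN1, CLN2, CLN3, CLB2, CLB3 and CLB5, and the 6 lower ones in CLN2, CLB5 and CLB6. The median occupancy of a gene in ioc3Δ ran from 26.2 in CLB2 to 56.8 in CLN2, and in WT from 27.3 in CLB2 to 75.3 in CLB5, and the calls of every gene overlapped those of every other in range. By phase, the median scaled ratio was 1.17 in the G1 cyclin genes, 0.795 in the S-phase ones and 1.02 in the mitotic ones. The median of the G1 genes was 1.04 without scaling and 0.879 when scaled by the summed occupancies, so its direction depends on the scaling, as does that of the mitotic genes, 0.914 and 0.773.

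The median spacing over the cyclin arrays together was nearly equal in both strains. Over the 46 neighbouring pairs 110 to 230 bp apart in WT, the median distance was 173.5 bp in ioc3Δ and 172 bp in WT. In ioc3Δ 25 pairs were longer and 20 shorter. Over all genes it was 168 bp in both strains, with 17480 of 38593 pairs longer and 16641 shorter. Single genes differed more, with medians of 178.5 bp in ioc3Δ and 159.5 bp in WT in CLN1, and 172 bp in ioc3Δ and 184 bp in WT in CLN3. The arrays had more gaps than those of other genes, since 13 of 59 neighbouring pairs lay more than 230 bp apart in WT (11.8% over all genes), up to 413 bp in CLB2. The WT table paired with the table labelled ioc3ΔcHLB held 7 further cyclin calls and lacked 3, and the further calls lay in such gaps of CLN1, CLN3, CLB1, CLB2, CLB3 and CLB4. In 7 of the 13 gaps that table had a call, so a gap in these rows need not be a stretch without nucleosomes. CLB6 had no gap, with 7 calls in an unbroken array.

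The called dyads differed between the mutant tables more than the occupancies did. In the table labelled ioc3ΔcHLB the occupancy was within 10% of that of ioc3Δ in 61 of 65 shared calls, while the dyad was the same in 5 and within 5 bp in 37. Of the 14 calls that passed, 7 passed in the same direction there, 5 did not pass and 2 passed in the other direction. The 7 were CLN1 call 3 (-63 bp there), CLN2 call 1 (48 bp), CLN2 call 9 (55 bp), CLN3 call 7 (-35 bp), CLB2 call 1 (18 bp), CLB4 call 2 (40 bp) and CLB4 call 3 (21 bp). CLN2 call 5 stood at 64 bp there and CLN2 call 8 at -43 bp, and the largest upstream move, that of CLN1 call 5, at -1 bp. CLB1 call 1 stood at 19 bp, CLN1 call 7 at -10 bp, CLN3 call 1 at 3 bp and CLB6 call 1 at 0 bp. Another 4 calls passed there and not in ioc3Δ, CLN1 call 2 (44 bp), CLB2 call 3 (-39 bp), CLB2 call 6 (59 bp) and CLB4 call 7 (-10 bp). With the mean dyad of a call in place of the called dyad, 11 of the 14 shifts passed with the same sign, among them CLB1 call 1 (52 bp) and CLN1 call 5 (-40 bp).

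**Figure D5:**
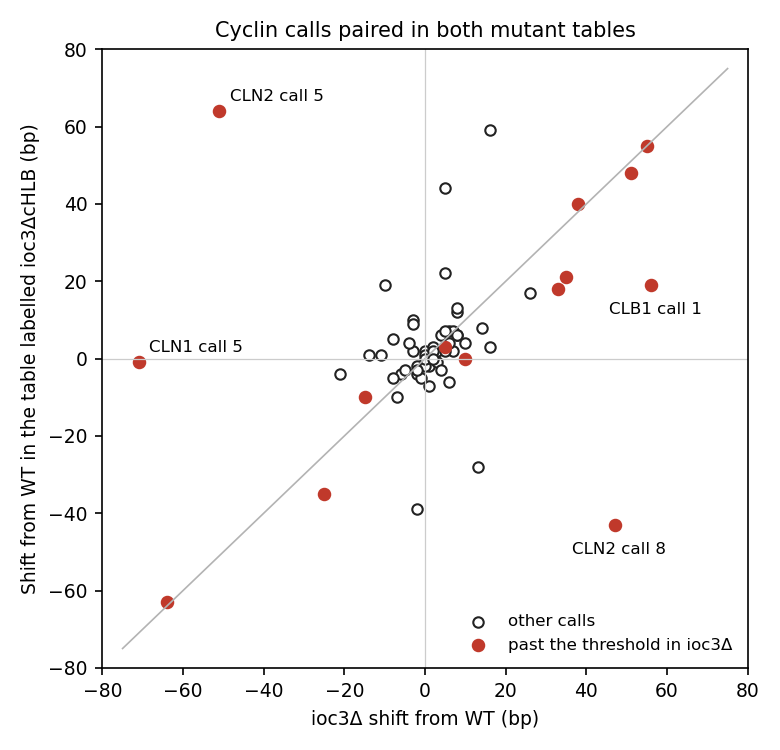
Shift from WT of the 65 cyclin calls that both mutant tables pair with the same WT call, with ioc3Δ on the x axis and the table labelled ioc3ΔcHLB on the y axis (bp, downstream positive). Filled points passed in ioc3Δ, and the diagonal marks equal shifts. The named points, CLN1 call 5, CLN2 calls 5 and 8 and CLB1 call 1, lie far from the diagonal.

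The genes that act on the cyclins were counted by 4 lists of 48 genes in all. The genes named here were picked as those with the most calls past the threshold in their list. SWE1 and SWI5 have 12 calls each, GRR1 16, CDC27 13, PCL8 10 and NDD1 8, and 21.6% of the calls of all genes passed. In the list of Cdc28, its inhibitors and its regulators, 6 of 48 calls passed downstream and 5 upstream. SWE1, the kinase that holds Cdc28 inactive, had 6 of these, 4 downstream and 2 upstream, with +2 moved by 17 bp and +3 by 69 bp. In the list of transcription factors of cyclin genes 22 of 138 calls passed downstream and 6 upstream, with a median shift of 1.5 bp. SWI5, a factor of the end of mitosis, had 4 downstream calls of 35, 28, 11 and 69 bp, and NDD1, the coactivator of CLB2 transcription, had 3 downstream and 1 upstream. In the list of the machinery that destroys cyclins 19 of 172 tested calls passed downstream and 18 upstream. CDC27, a subunit of the anaphase-promoting complex, had 6 neighbouring calls moved upstream by 35 to 71 bp, from 1257 bp past the start codon on, and 1 call moved by 3 bp downstream. GRR1, the F-box protein that marks Cln1 and Cln2, had 4 downstream and 2 upstream. In the list of other cyclins 9 of 89 passed downstream and 3 upstream, 5 of them in PCL8. Against 12.5% downstream and 9.06% upstream over all genes, the list shares were 12.5% and 10.4% for Cdc28 and its regulators, 15.9% and 4.35% for the transcription factors, 11.0% and 10.5% for the destruction machinery and 10.1% and 3.37% for the other cyclins.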

How the data were processed

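The authors mapped paired-end reads to sacCer3 with Bowtie2 (version 2.0 in the submitters' processing notes), placed a dyad at the middle of every fragment, scaled dyad density to the genome-wide mean and called nucleosomes once the 3 samples of each strain were merged. The deposited tables give, besides positions, a dyad SD in bp (a score) and an occupancy (a signal) per call. WT and mutant rows are paired with an overlap of at least 73 bp. Of 53840 rows, 1911 repeats and 12 calls of the rRNA locus (chromosome XII, 451275 to 469084) were dropped. Whole multiples, within 1%, of 0.199 in ioc3Δ and 0.138 in WT gave 35955477 and 43911516 fragments in the calls.

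The paper names an unequal-variance test that uses shift, occupancy and SD, and how the occupancy enters it is not given in the sources used here. Here the occupancy of a call stood for its n, and calls with an occupancy under 2 in either strain were not tested. The rebuilt test was also run on simulated data, whose noise was drawn from the SD and occupancy of each call. The test assumes the same noise, so the simulation cannot show whether occupancy is a fair n or how much cultures vary. Medians have distribution-free 95% intervals, ratios of single calls 95% counting intervals. Beside all 9 cyclin genes, up to 4 genes of each list with the most calls past the threshold were to be named. In full stand +1, +2 and, in each gene, the call moved farthest past the threshold, and sequences of the farthest moves. The members, the 4 lists and the rules were chosen with earlier results of these data known. Alternatives covered the observations, threshold, mean dyad, overlap, filters on occupancy and SD, position, scaling and the second mutant table. Calculations used numpy 2.4.6, scipy 1.17.1 and pandas 2.3.3 under Python 3.11.15, and figures matplotlib 3.10.9. The paper's RNA-seq and ChIP-seq were not analysed here.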

Additional observations from a re-analysis of the deposited data

How the results depend on the processing

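The 9 downstream and 5 upstream shifts depend on the number of observations given to the test. With 3 observations per strain 0 passed downstream and 0 upstream, with fragments in place of occupancy 24 and 11, at an unadjusted p under 0.05 by occupancy 11 and 7, and at a Benjamini-Hochberg adjusted p under 0.05 they were 9 and 5. An overlap of at least 110 bp left 4 downstream and 2 upstream. Of the 5 shifted +1 calls, 3 passed with the mean dyad, 3 at that overlap, 3 in the upper 75% of occupancy, 2 in the table labelled ioc3ΔcHLB and 0 with 3 observations, a count added after the data were seen. Occupancy in the upper 75% left 2 upstream shifts and 8 calls past 1.5-fold. The median shift was 7 bp from +1 to +4. The median SD difference was 4.11 bp for calls with a WT SD at or under the median and 4.14 bp in the table labelled ioc3ΔcHLB. In that table CLN2 call 5 stood at 64 bp and CLN2 call 8 at -43 bp, reversed. The median occupancy ratio was 0.892 without scaling and 0.755 scaled by the summed occupancies. Scaling by the sums put 26 calls past 1.5-fold. With the main scaling 2 calls were past 2-fold. The causes of these changes were not tested. Of the 14 calls past 1.5-fold, 9 stayed past it without scaling and 8 when scaled by the sums. No paired analysis was possible because the tables hold merged samples and their columns carry no replicate, and no replicate could be left out. Calls with few fragments limit the ratios, the lowest cyclin call resting on 75 fragments in ioc3Δ.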
